A study of Mus musculus with 9 samples.

Results

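T cell receptor alpha and beta variable segments were read as a repertoire: each segment's counts were expressed as a share of all alpha variable (Trav) or all beta variable (Trbv) counts of a library. The members were every gene of the count table whose identifier maps to a symbol beginning with Trav or Trbv. They numbered 163 of 49671 genes, 128 Trav segments on chromosome 14 and 35 Trbv segments on chromosome 6. The libraries came from splenic CD3+ T cells, enriched on columns, of female F1 mice whose C57BL/6 mothers carried a heterozygous deletion of Xist and whose fathers were castaneus, a cross in which X inactivation is skewed. The 3 groups had 3 libraries each. Unstimulated cells went directly into TRIzol. Stimulated cells were kept for 48 hours on plates coated with anti-CD3 (1 µg/ml) with anti-CD28 (10 µg/ml) in solution, antibodies that engage the receptor complex and a costimulatory receptor. Inhibitor cells had that culture plus 2.5 µM IMD-0354, which blocks IKK-beta, a kinase of the NF-kB pathway. All groups share the cross and the deletion. The labels name no vehicle and no cultured group without stimulation, so culture and stimulation cannot be told apart. They call the libraries biological replicates without saying that each is a separate animal, so a p-value here reflects only how these samples spread, in part perhaps for technical reasons.

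In the thymus, each receptor chain is made by joining a single variable segment to a joining segment (and, in the beta chain, a diversity segment). The joined exon is spliced to a constant gene. The variable segment encodes most of the part that touches antigen and MHC, and the join itself forms the third complementarity-determining region. Mature T cells do not normally rearrange these loci again, so a shift of shares in a culture is read here as a shift in RNA and not as new joins. Fewer cells with a segment and less receptor RNA per cell cannot be told apart in bulk RNA. Gene counts give no joined sequence and pair no alpha with a beta chain. They do not separate RNA of joined from that of unjoined segments, or in-frame from out-of-frame joins.

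The 3′ ends of coding variable exons show what the counts could separate. The last 90 bases are printed 5′ to 3′ (GENCODE M21 transcripts, mm10, plus strand), with the codon of the conserved second cysteine, at which the third complementarity-determining region begins, in capitals. First are 4 beta segments on which the results turn, Trbv1 at chr6:40891796-40891885 and the Trbv13 family at chr6:41116379-41116468, chr6:41121743-41121832 and chr6:41130496-41130585.
Trbv1: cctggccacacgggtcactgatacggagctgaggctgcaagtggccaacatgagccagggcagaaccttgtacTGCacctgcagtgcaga
Trbv13-1: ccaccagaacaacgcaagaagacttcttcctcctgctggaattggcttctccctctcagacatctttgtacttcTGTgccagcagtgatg
Trbv13-2: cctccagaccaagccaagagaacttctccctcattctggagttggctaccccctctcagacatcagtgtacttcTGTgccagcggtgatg
Trbv13-3: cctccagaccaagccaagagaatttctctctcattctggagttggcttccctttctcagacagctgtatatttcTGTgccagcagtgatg
Within the family, Trbv13-2 and Trbv13-3 differed at 10 of the 90 bases, Trbv13-1 and Trbv13-2 at 15, and Trbv13-1 and Trbv13-3 at 19. Of the 50-base words of Trbv13-3, 99.7% occurred in no other annotated variable segment, and for Trbv1 and Trbv13-1 all did.

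The alpha locus is different, because a stretch of it exists in 3 versions in the reference, whose segments carry plain names, a d or an n. The next 4 ends belong to Trav15, a family whose names also carry dv because its segments can join in delta as well as alpha chains: Trav15-1-dv6-1 at chr14:53560158-53560247, Trav15-2-dv6-2 at chr14:53649905-53649994, and the d and n copies of the latter at chr14:52957311-52957400 and chr14:53268446-53268535.
Trav15-1-dv6-1: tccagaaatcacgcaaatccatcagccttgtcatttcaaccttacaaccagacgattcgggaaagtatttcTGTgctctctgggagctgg
Trav15-2-dv6-2: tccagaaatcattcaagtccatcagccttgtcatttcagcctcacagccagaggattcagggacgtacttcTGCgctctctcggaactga
Trav15d-2-dv6d-2: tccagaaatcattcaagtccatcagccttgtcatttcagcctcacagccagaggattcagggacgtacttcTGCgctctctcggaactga
Trav15n-2: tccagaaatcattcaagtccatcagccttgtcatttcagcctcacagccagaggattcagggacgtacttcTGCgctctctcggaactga
The last 3 ends were identical, and Trav15-1-dv6-1 differed from them at 15 of 90 bases. Trav15-2-dv6-2 held 296 counts over the 9 libraries, and its d and n copies held 0 each.

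Uniqueness was measured for each segment as the percentage of its 50-base words found in no other annotated variable segment. All 35 Trbv segments had at least 50% of such words to themselves, and in 31 every word was private. Of the 128 Trav segments, 53 reached 50%, 75 did not, and 40 had no private word. Of those 40, 32 had under 10 counts in all libraries together, and the highest, Trav6d-7, had 77. A count near 0 in such a copy is therefore no measure of its RNA, and the counts of its partner may hold reads of both. The number of Trav segments without a private word was also 40 with words of 75 bases.

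**Figure D1:**
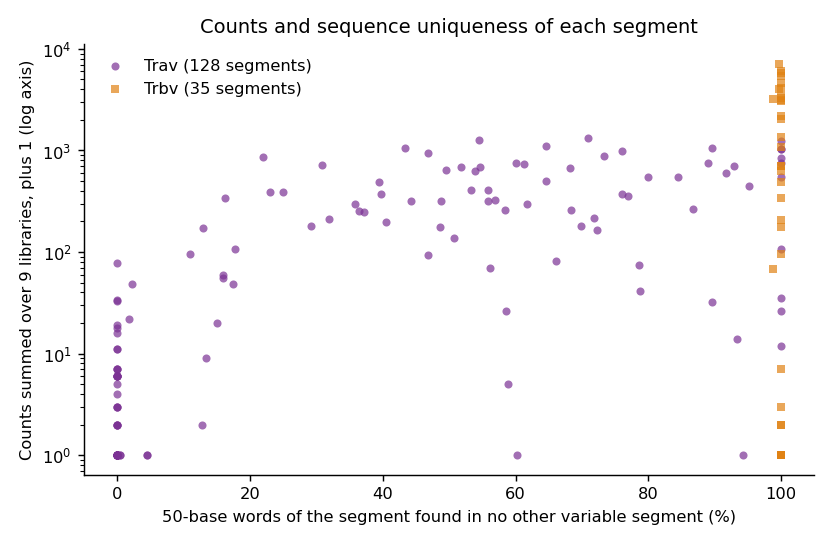
Each point is a variable segment (128 Trav, 35 Trbv); the x axis gives the percentage of its 50-base words found in no other variable segment, and the log y axis its counts summed over 9 libraries, plus 1. The 40 Trav segments at 0% all lie at or under 77 counts, and the Trbv segments lie at the right edge.

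Library totals ran from 34009988 to 56221174 counts. Trav segments together took 2759 to 5647 counts of a library and Trbv segments 4736 to 12008, so that 3 counts, the limit a count of 0 allows, corresponded to a share of 0.0531% to 0.109% of Trav and 0.0250% to 0.0633% of Trbv counts. Wilson 95% intervals around a single library's share of a named segment reached at most 0.919 percentage points to either side of their middle, for Trbv1. Intervals and floors cover counting error only and take counts as independent. The counting of mates is not given, so they may be too narrow. Inhibitor replicate 1 stood apart: it had the lowest total and 12258 genes with 1 to 10 counts, against 4892 to 6963 in the other 8 libraries. The next lowest totals, 38438379 and 38706313 in unstimulated replicates 2 and 1, came with 5337 and 5202 such genes. The cause of its many low counts was not tested. Results that move without it are given with their value. Of the 163 segments, 91 passed the filter on low counts, 66 Trav and 25 Trbv. The other 72 had at most 68 counts over all libraries and held 2.07% of Trav and 0.0157% of Trbv counts. No count was seen for 26 segments, of which 14 are annotated as pseudogenes.

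In all 9 libraries the beta repertoire was led by a small set of segments. Averaged over libraries, Trbv13-2, Trbv2, Trbv1, Trbv19, Trbv13-1, Trbv31, Trbv13-3, Trbv29, Trbv20 and Trbv21 had the 10 largest shares. Trbv13-2 was the largest segment in the 3 unstimulated libraries and in inhibitor replicate 1, Trbv1 in stimulated replicates 2 and 3, and Trbv2 in stimulated replicate 1 and inhibitor replicates 2 and 3. Per kilobase of exon, the mean level over libraries was highest for Trbv13-2 at 51.3 CPM per kilobase, followed by Trbv1 at 33.4, Trbv13-1 at 30.8, Trbv13-3 at 29.3 and Trbv2 at 26.2. CPM stands for counts relative to the library's total after TMM scaling. Trbv31, the segment that lies beyond the beta constant genes in inverted orientation, stood at 23.7 CPM per kilobase. At the low end, Trbv5 took 0.296% ± 0.0160 of Trbv counts in unstimulated cells and Trbv23 0.227% ± 0.0508. Trbv24, annotated as a pseudogene in the reference, took 3.16% ± 0.552 (SD, n = 3) of Trbv counts in unstimulated, 3.70% ± 0.764 in stimulated and 2.96% ± 0.414 in inhibitor cells, above Trbv14 (2.18%, 2.16% and 1.94%) and Trbv3 (1.74%, 1.89% and 1.59%), which are annotated as functional.

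**Figure D2:**
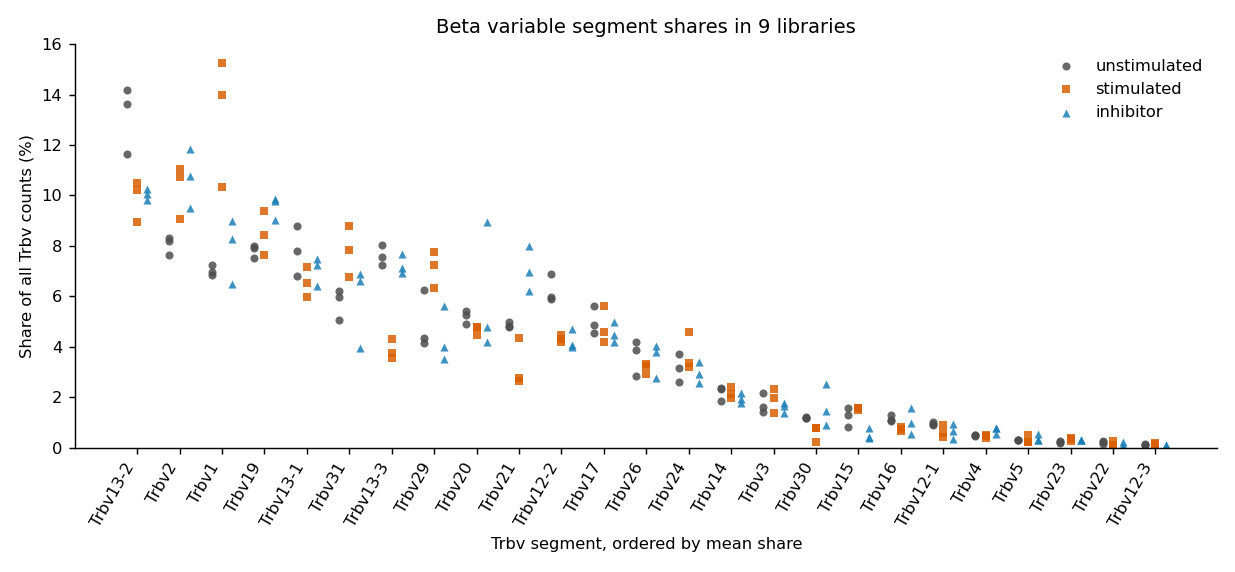
Share of all Trbv counts (y axis, %) of the 25 Trbv segments tested, ordered by mean share (x axis), with 1 point per library in 3 groups of 3. Trbv1 stands higher in the stimulated libraries, Trbv13-3 lower, and Trbv21 higher in the inhibitor libraries.

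The question of the first comparison is what 48 hours of stimulation did to the composition of the repertoire. Trbv1 rose and Trbv13-3 fell as shares of Trbv counts, and Trav14-1 and Trav15-1-dv6-1 fell as shares of Trav counts. The other 87 of 91 segments did not pass the test. Shares were tested with edgeR's quasi-likelihood test on the whole table of 18374 genes, with the library size replaced by the Trbv or Trav total of the library and Benjamini-Hochberg adjustment over all genes (threshold 0.05). Of all genes, 41.3% were called higher and 18.5% lower against the Trbv total, and 35.1% higher and 24.1% lower against the Trav total. The members had 1 higher and 3 lower calls of 91. Their own total is the offset, which by construction keeps their log2 differences near 0 as a whole. Other genes are not held in this way, so the smaller share of calls among members is no result about the repertoire.

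Trbv1 took 6.97%, 6.84% and 7.24% of Trbv counts in unstimulated replicates 1 to 3 and 10.3%, 14.0% and 15.2% in the stimulated ones. All 3 stimulated libraries lay above all unstimulated ones, with replicate 1 nearest to them. The share rose by 0.91 ± 0.23 on the log2 scale (approximate SE; adjusted p = 0.00369, edgeR). Scaled to the whole library instead, Trbv1 was at 13.9 CPM ± 3.64 and 17.2 CPM ± 2.15, a log2 difference of 0.31 that missed the threshold (adjusted p = 0.223, edgeR). Its share rose while its level per library did not pass the test.

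Trbv13-3 moved the other way. Its shares were 8.04%, 7.24% and 7.56% in unstimulated and 3.76%, 4.32% and 3.56% in stimulated cells, with no overlap. The share fell by 0.97 ± 0.22 on the log2 scale (adjusted p = 0.00174, edgeR), and it passed under all 14 alternatives of the share test. Its level fell as well, from 15.1 CPM ± 3.81 to 5.11 CPM ± 0.526 (log2 difference -1.56 ± 0.19, adjusted p = 5.15e-05, edgeR).

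The 2 close relatives of Trbv13-3 did not pass the share test. Trbv13-2 took 11.7%, 14.2% and 13.6% of Trbv counts in unstimulated and 8.95%, 10.2% and 10.5% in stimulated cells, again without overlap (log2 difference -0.41, adjusted p = 0.0841, edgeR). Trbv13-1 stood at 7.79% ± 0.998 and 6.55% ± 0.599 (adjusted p = 0.332, edgeR). Summed, the Trbv13 family fell from 28.6% ± 1.26 to 20.3% ± 0.646 of Trbv counts (log2 difference -0.49 ± 0.17, adjusted p = 0.0254, edgeR on family sums). Of the remaining leading beta segments, Trbv2 stood at 8.05% ± 0.362 and 10.3% ± 1.07 (adjusted p = 0.149), Trbv31 at 5.75% ± 0.600 and 7.80% ± 1.02 (adjusted p = 0.159), and Trbv29 at 4.92% ± 1.17 and 7.10% ± 0.731 (adjusted p = 0.105). Their groups did not overlap, and none passed. Trbv12-2, at 6.25% ± 0.562 and 4.32% ± 0.151, was close to the threshold (adjusted p = 0.0573, edgeR). Trbv19 was at 7.81% and 8.49% (adjusted p = 0.621) and Trbv20 at 5.19% and 4.68% (adjusted p = 0.672, edgeR).

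In the alpha locus, no segment took more than 5.48% of Trav counts in any library. Over libraries, Trav12-2, Trav14-2, Trav1, Trav3-1, Trav6-1, Trav2, Trav14-3, Trav5-1, Trav4-3 and Trav4-4-dv10 had the 10 largest mean shares, and none of these passed the share test in any of the 3 comparisons. Per kilobase of exon, Trav14-2 at 8.01 CPM per kilobase and Trav1 at 7.97 were the highest. They were followed by Trav6-1 at 7.65 and Trav12-2 at 7.44, so the leading alpha segments lay close together.

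Trav14-1 took 1.79%, 2.20% and 2.00% of Trav counts in unstimulated and 0.338%, 1.25% and 0.714% in stimulated cells. All stimulated libraries lay below all unstimulated ones, with a wide spread among them. The log2 difference was -1.38 ± 0.51 (adjusted p = 0.0347, edgeR), and the call was lost without any 1 of unstimulated replicates 1, 2 and 3 or stimulated replicates 1 and 3 (adjusted p between 0.0573 and 0.106). Trav14-2 stood at 4.29% ± 0.421 and 2.91% ± 0.889 (adjusted p = 0.104) and Trav14-3 at 3.58% ± 0.699 and 2.26% ± 0.263 (adjusted p = 0.0643), neither passing. Summed over its 9 segments, the Trav14 family fell from 15.1% ± 1.11 to 9.43% ± 1.07 of Trav counts (log2 difference -0.68 ± 0.18, adjusted p = 0.00769, edgeR on family sums). A family sum does not depend on how counted reads were divided among near-identical copies of that family. The treatment of reads that fit several copies is not given, and any left uncounted are missing from the sum. The next largest alpha families, Trav6, Trav7, Trav3, Trav12 and Trav4, passed in none of the 3 comparisons. For stimulated against unstimulated cells their adjusted p was 0.562, 0.510, 0.425, 0.288 and 0.975 (edgeR on family sums).

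Trav15-1-dv6-1 took 3.86%, 2.51% and 2.89% in unstimulated and 1.48%, 1.40% and 2.00% in stimulated cells, without overlap. The log2 difference was -0.92 ± 0.35 (adjusted p = 0.0397, edgeR). This call was the least stable, lost in 8 of 14 alternatives, among them without unstimulated replicate 1 (adjusted p = 0.150), without a filter on low counts (0.123) and with the replicate number as a block (0.0594). The Trav15 family sum fell from 4.78% ± 0.792 to 2.52% ± 0.328 (log2 difference -0.92 ± 0.28, adjusted p = 0.0156, edgeR on family sums). This family is not among the largest, which the naming rule takes, and is given beside its called segments.

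**Figure D3:**
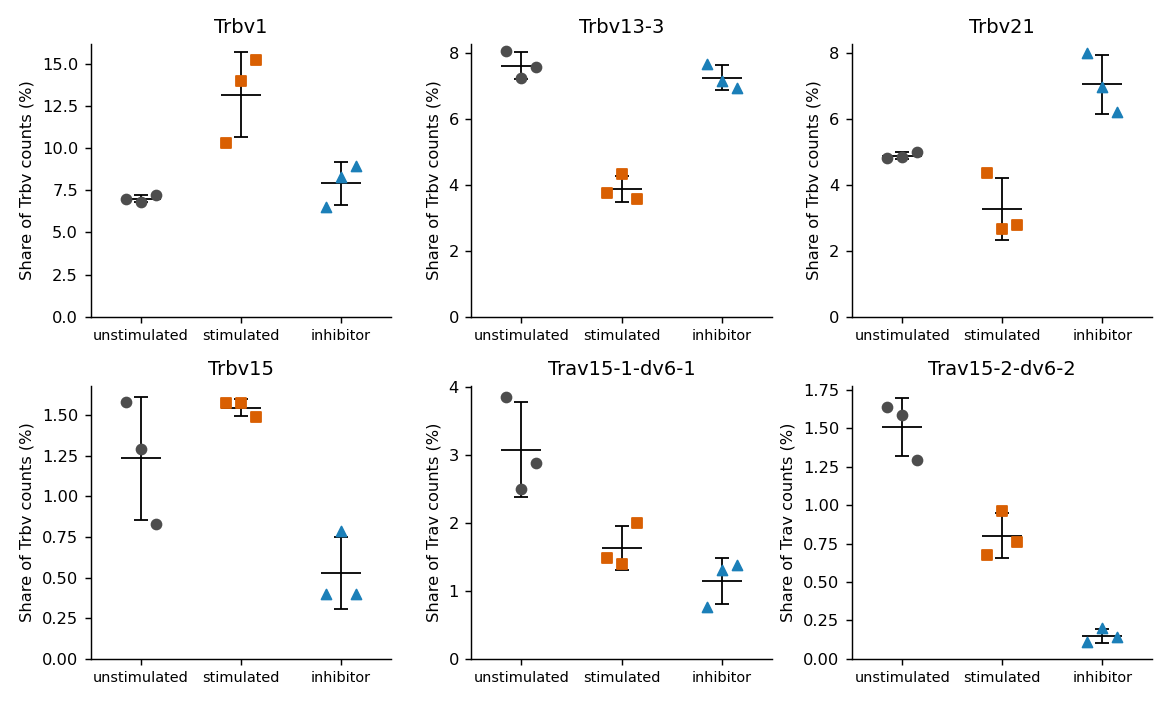
Share of the Trbv or Trav counts (y axis, %) of 6 segments in each library of 3 groups (points); horizontal bars give the mean and error bars the SD of 3 libraries. Trbv1 and Trbv13-3 stand apart in stimulated cells, and Trbv15 and Trav15-2-dv6-2 are lowest in the inhibitor libraries.

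The second comparison asks which shares differed when IMD-0354 was present during stimulation. Trbv13-3 and Trbv21 were higher with the inhibitor, and Trbv1, Trbv15 and Trav15-2-dv6-2 lower. The other 86 of 91 segments did not pass. Among all genes, 11.5% were called higher and 14.5% lower against the Trbv total, and 17.2% and 14.2% against the Trav total. This comparison shares its 3 stimulated libraries with the first, so opposite movements of a segment in both are not independent.

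Trbv1 took 6.48%, 8.29% and 8.97% of Trbv counts with the inhibitor, all below the 10.3% to 15.2% of stimulated cells. The log2 difference was -0.74 ± 0.23 (adjusted p = 0.0297, edgeR). The call was lost in 6 of 14 alternatives, with adjusted p of 0.0595 without a filter on low counts, 0.152 without stimulated replicate 3, 0.135 without inhibitor replicate 1, 0.100 without stimulated replicate 2, 0.0903 without inhibitor replicate 2 and 0.0562 without inhibitor replicate 3. Its level was also lower, at 10.6 CPM ± 2.02 (adjusted p = 0.0228, edgeR).

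Trbv13-3 stood at 7.66%, 7.14% and 6.93% with the inhibitor, all above the 3.56% to 4.32% of stimulated cells. The log2 difference was 0.90 ± 0.22 (adjusted p = 0.00887, edgeR), and only without stimulated replicate 3 was the call lost among the alternatives (adjusted p = 0.0596). The other Trbv13 segments did not pass, with Trbv13-2 at 10.0% ± 0.207 and Trbv13-1 at 7.05% ± 0.570, and neither did the family sum at 24.3% ± 0.931 (adjusted p = 0.287, edgeR).

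Trbv21 took 4.80%, 4.82% and 5.0% of Trbv counts in unstimulated, 4.35%, 2.65% and 2.77% in stimulated and 7.98%, 6.95% and 6.20% in inhibitor cells. The inhibitor libraries lay above all others. Against stimulated cells the log2 difference was 1.11 ± 0.26 (adjusted p = 0.00822, edgeR), lost only without stimulated replicate 3 among the alternatives (adjusted p = 0.0548). Against unstimulated cells it was 0.53 ± 0.26 and did not pass (adjusted p = 0.103, edgeR).

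Trbv15 was a minor segment, with 1.58%, 1.29% and 0.833% in unstimulated, 1.58%, 1.57% and 1.49% in stimulated and 0.401%, 0.785% and 0.396% in inhibitor cells. The inhibitor values rest on 19, 50 and 26 counts. They were lower than stimulated cells by a log2 difference of -1.54 ± 0.41 (adjusted p = 0.0147, edgeR), lost without inhibitor replicate 1 (adjusted p = 0.0569) or 3 (0.0647). Against unstimulated cells the log2 difference was -1.22 ± 0.41 (adjusted p = 0.0232, edgeR), lost in 4 of 14 alternatives, with adjusted p up to 0.101 without unstimulated replicate 1, 0.0974 without inhibitor replicate 3 and 0.0751 without inhibitor replicate 1.

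Among shares that passed, Trav15-2-dv6-2 had the largest log2 difference. Its shares were 1.64%, 1.59% and 1.29% of Trav counts in unstimulated, 0.676%, 0.962% and 0.762% in stimulated, and 0.109%, 0.199% and 0.141% in inhibitor cells, so the groups were fully separated. In counts these were 65, 52 and 73, then 26, 33 and 32, then 3, 7 and 5. Against unstimulated cells the inhibitor log2 difference was -3.29 ± 0.48 (adjusted p = 2.46e-04, edgeR), which passed under all 14 alternatives. Against stimulated cells it was -2.38 ± 0.48 (adjusted p = 0.00365, edgeR). This segment was too small for the naming rule in that comparison and is given there because its values had been seen. Stimulated against unstimulated cells did not pass (log2 difference -0.91, adjusted p = 0.0803, edgeR). The 3 counts of inhibitor replicate 1 equal the limit that a count of 0 allows, and Wilson 95% intervals of the inhibitor shares ran from 0.0370% to 0.411%, below those of every other library, so the size of the difference is imprecise. Leaving out any 1 inhibitor library gave log2 differences of -3.55 to -3.12 against unstimulated cells. The identical ends of its d and n copies mean that reads of those copies may be held in its counts.

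Trav15-1-dv6-1 was at 0.761%, 1.31% and 1.38% with the inhibitor, below all unstimulated libraries (log2 difference -1.41 ± 0.36, adjusted p = 0.00671, edgeR, passing under all 14 alternatives). Against stimulated cells the log2 difference was -0.49 (adjusted p = 0.315, edgeR). The Trav15 family sum, 1.39% ± 0.265 with the inhibitor, was lower than in stimulated (log2 difference -0.85 ± 0.29, adjusted p = 0.0448, edgeR) and unstimulated cells (log2 difference -1.77 ± 0.29, adjusted p = 5.47e-04, edgeR).

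The third comparison, inhibitor against unstimulated cells, shares its libraries with the other 2. It had 0 higher and 4 lower shares of 91: Trbv15, Trav15-1-dv6-1, Trav15-2-dv6-2 and Trav9n-1. Among all genes, 37.7% were higher and 13.6% lower against the Trbv total, and 32.9% and 16.5% against the Trav total. At an unadjusted p under 0.05, 1 share was higher (Trav2, named for this count after its value was seen, at 2.42% ± 0.350 in unstimulated and 3.84% ± 0.541 in inhibitor cells; adjusted p = 0.0702, edgeR). Trav9n-1, annotated as a pseudogene and also named after its values were seen, stood at 0.753% ± 0.123 and 0.221% ± 0.0779 (log2 difference -1.75 ± 0.55, adjusted p = 0.0216, edgeR). Trbv1 and Trbv13-3, which differed between stimulated cells and both other groups, did not differ beyond the spread here (log2 differences 0.17 and -0.07, adjusted p = 0.543 and 0.799, edgeR). The Trbv12 family sum was lower with the inhibitor, 4.96% ± 0.558 against 7.30% ± 0.545 (log2 difference -0.56 ± 0.22, adjusted p = 0.0490, edgeR on family sums).

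Segments whose names carry dv can join in delta chains, so markers of gamma-delta T cells were read beside them. Summed, the dv-named segments took 17.3%, 16.0% and 13.7% of Trav counts in unstimulated, 11.3%, 10.5% and 12.8% in stimulated and 11.4%, 10.3% and 13.9% in inhibitor cells. The stimulated libraries lay below the unstimulated ones, and the inhibitor libraries overlapped both other groups. The 5 gamma-delta markers (Trdc, Tcrg-C1, Tcrg-C2, Tcrg-C4 and Sox13) summed to 71.4 to 92.8 CPM in unstimulated, 22.5 to 28.4 in stimulated and 7.54 to 8.56 in inhibitor cells. None was at 0 in a group. Of the 5, 4 fell with stimulation, 4 were lower with the inhibitor than in stimulated and all 5 lower than in unstimulated cells, where 34.0%, 22.8% and 26.1% of all genes were. Trdc, the delta constant gene, was at 47.1 CPM ± 6.62, 13.4 CPM ± 2.38 and 5.74 CPM ± 0.543 (inhibitor against stimulated, log2 difference -1.22, adjusted p = 2.16e-04, edgeR). Tcrg-C4, a gamma constant gene, was at 18.6 CPM ± 2.59, 4.91 CPM ± 0.0397 and 0.952 CPM ± 0.285. Of the 9 Trdv and Tcrg-V segments tested of 12, 8 fell with stimulation and 4 were lower with the inhibitor than in stimulated cells. The part of gamma-delta cells in the Trav15 shares was not tested.

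Segments known from semi-invariant T cells gave different amounts of information. Trav11, used by invariant NKT cells, had 10 counts over all 9 libraries and its copy Trav11d had 4, and neither had a private 50-base word. The third copy, Trav11n, named after its values were seen, is annotated as a pseudogene, had 78.6% private words and held 74 counts. Its shares of 0.270% ± 0.0815 (SD, n = 3) in unstimulated, 0.131% ± 0.0221 in stimulated and 0.277% ± 0.139 in inhibitor cells passed in no comparison (adjusted p = 0.240, 0.293 and 0.973, edgeR). The Trav11 family sum took 0.455%, 0.336% and 0.230% of Trav counts in unstimulated, 0.260%, 0.117% and 0.119% in stimulated and 0.435%, 0.199% and 0.226% in inhibitor cells. The groups overlapped, and the sum passed in no comparison (adjusted p = 0.235 for stimulated against unstimulated, 0.445 for inhibitor against stimulated and 0.789 for inhibitor against unstimulated cells, edgeR on family sums). Most counts of the family were thus those of the pseudogene. Zbtb16, the transcription factor of innate-like T cells, fell from 21.3 CPM ± 1.02 to 3.74 CPM ± 0.113 with stimulation (log2 difference -2.51, adjusted p = 7.05e-05, edgeR) and was at 1.02 CPM ± 0.667 with the inhibitor. Traj18, the joining segment of the invariant chain, stood at 7.40 CPM ± 0.629, 3.42 CPM ± 0.469 and 5.57 CPM ± 1.31. With stimulation 44 of 58 Traj segments tested fell, where 34.0% of all genes did. The level of Traj18 is therefore no readout particular to invariant NKT cells. Trav1, used by MAIT cells, had all its words to itself. It took 3.31%, 2.93% and 3.56% of Trav counts in unstimulated, 4.11%, 5.05% and 4.45% in stimulated and 2.14%, 3.36% and 3.11% in inhibitor cells. The stimulated libraries lay above both other groups, but neither comparison passed (adjusted p = 0.150 and 0.0856, edgeR). Inhibitor against stimulated cells did pass with only the 6 libraries compared (0.0426) and without unstimulated replicate 2 (0.0466, edgeR). Mr1, which encodes the MHC-like molecule that MAIT cells recognise, fell from 16.8 CPM ± 1.85 to 9.80 CPM ± 1.08 and was at 5.50 CPM ± 0.889 with the inhibitor.

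Evenness of the repertoire was summarised per library by the effective number of segments, the exponential of the Shannon entropy, which is the number of equally used segments that would give the same entropy. For Trbv it was 17.6, 17.4 and 16.7 in unstimulated, 16.8, 16.5 and 15.6 in stimulated and 16.8, 17.2 and 16.4 in inhibitor cells. For Trav it was 56.2, 53.6 and 56.6, then 56.0, 53.7 and 54.7, then 52.9, 54.2 and 55.6. The groups overlapped in both loci. The 5 largest Trbv segments of a library together took 44.5% ± 1.50 of Trbv counts in unstimulated, 49.8% ± 2.24 in stimulated and 46.5% ± 0.759 in inhibitor cells, with the stimulated libraries above both other groups. The largest Trav segment took 4.31% ± 0.408, 5.18% ± 0.474 and 4.33% ± 0.304. Between 24 and 26 Trbv and between 82 and 94 Trav segments had a count in a library.

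Libraries were also compared in pairs by the share of counts that would have to change segment to turn one repertoire into the other. For Trbv this was 5.58% to 6.46% among unstimulated, 5.65% to 10.5% among stimulated and 5.95% to 12.1% among inhibitor libraries. Between stimulated and unstimulated libraries it was 12.4% to 18.0%, above every pair within a group. Inhibitor libraries were 9.35% to 21.0% from stimulated and 10.1% to 13.6% from unstimulated ones, which overlaps the range within groups. For Trav, pairs within groups spanned 12.9% to 19.7% and pairs between groups 14.8% to 22.5%. The widest inhibitor distances came from replicate 1. Without it, the Trbv distance within the inhibitor group was 5.95% and inhibitor libraries were 9.35% to 15.6% from stimulated and 10.1% to 12.8% from unstimulated ones. The Trav distances without it were 12.9% to 16.6% within and 14.8% to 19.6% between groups. By this measure the beta repertoire separated stimulated from unstimulated libraries. For Trav these pairs were at 16.0% to 19.6%, against 12.9% to 16.6% within unstimulated and 13.7% to 15.1% within stimulated libraries, a slight overlap. Chi-squared per degree of freedom, which weighs differences by counts, was 5.06 to 6.55 for these Trav pairs. It was 3.53 to 4.79 within unstimulated, 3.30 to 4.09 within stimulated and 4.26 to 5.53 within inhibitor libraries (4.26 without replicate 1). Neither measure was tested.

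Levels were compared next, with counts scaled to the library (TMM). Trbv segments summed to 199, 151 and 243 CPM in unstimulated, 150, 118 and 129 in stimulated and 128, 139 and 135 in inhibitor cells. The unstimulated libraries lay above the rest but spread widely, and the lowest of them, replicate 2, was just above stimulated replicate 1. Trav segments summed to 96.4 CPM ± 19.4, 78.3 CPM ± 3.71 and 74.6 CPM ± 1.93, with overlap. Trac, the alpha constant gene, was at 280, 279 and 278 CPM in the 3 groups (adjusted p = 0.951 for stimulated against unstimulated, edgeR). Trbc1 stood at 168 CPM ± 35.9, 165 CPM ± 13.9 and 120 CPM ± 18.1, lower with the inhibitor than in stimulated cells (log2 difference -0.46, adjusted p = 0.0380, edgeR). Trbc2 stood at 244 CPM ± 60.8, 201 CPM ± 4.87 and 174 CPM ± 20.6 and passed only in inhibitor against unstimulated cells (adjusted p = 0.0263, edgeR).

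Set against the constant genes of the same library, the spread among unstimulated libraries narrowed. Trav counts were 35.5%, 33.8% and 33.8% of Trac counts in unstimulated, 28.6%, 26.8% and 28.9% in stimulated and 26.5%, 26.6% and 27.5% in inhibitor cells. Trbv counts were 48.1%, 47.9% and 47.8% of Trbc1 plus Trbc2 counts in unstimulated and 38.7%, 33.3% and 36.2% in stimulated cells. With the inhibitor they were 51.5%, 44.2% and 42.3%, above stimulated and overlapping unstimulated cells. Trbv counts exceeded Trav counts by 2.04 ± 0.0742 times, 1.69 ± 0.139 times and 1.79 ± 0.0704 times in the 3 groups. Trbc1 held 40.9% ± 0.915 of the 2 beta constant genes' counts in unstimulated, 45.0% ± 1.45 in stimulated and 40.7% ± 0.876 in inhibitor cells, highest in all 3 stimulated libraries. These ratios carry no test, and levels of genes of unequal length are not compared by them.

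**Figure D4:**
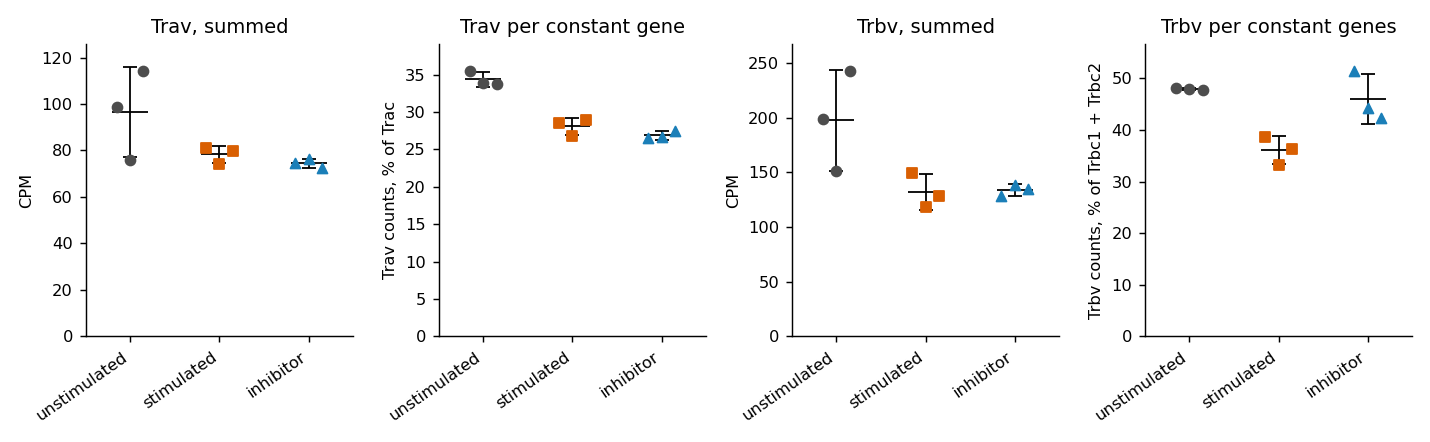
Summed Trav and Trbv levels (CPM) and the same counts as a percentage of the constant genes' counts, per library (points), with the mean (bar) and SD (error bar) of 3 libraries. Trbv as a percentage of Trbc1 plus Trbc2 is 47.8% to 48.1% in unstimulated and 33.3% to 38.7% in stimulated libraries.

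Segment by segment, 18 of 91 levels fell with stimulation and 0 rose, where 34.0% of all genes fell and 32.0% rose. At an unadjusted p under 0.05 there were also 0 higher levels, and DESeq2 and limma called 0. The falls were in 7 of 66 Trav and 11 of 25 Trbv segments tested, among them Trbv12-2 (12.2 CPM ± 1.99 to 5.72 CPM ± 0.768, adjusted p = 2.68e-04, edgeR) and Trbv13-2 (log2 difference -0.99, adjusted p = 3.53e-04). The count was 11 without unstimulated replicate 3 and without stimulated replicate 3. Inhibitor against unstimulated cells had 15 lower and 0 higher levels, 5 Trav and 10 Trbv, where 26.1% of all genes were lower and 26.3% higher. DESeq2, limma and an unadjusted p under 0.05 gave 0 higher as well. The lower count was 7 without unstimulated replicate 1 or 3, 9 without stimulated replicate 3 and 8 without inhibitor replicate 3. Inhibitor against stimulated cells had 3 higher (Trbv13-3, Trbv21 and Trbv30) and 3 lower levels (Trbv1, Trbv15 and Trav15-2-dv6-2), where 21.7% and 22.8% of all genes were called. Trbv30 is outside the naming rule and was named after its value was seen (0.778 CPM ± 0.462 in stimulated, 2.14 CPM ± 1.00 in inhibitor cells, adjusted p = 0.0427, edgeR). Its share of Trbv counts was 0.775%, 0.768% and 0.206% in stimulated and 2.51%, 0.895% and 1.46% in inhibitor cells, highest in inhibitor replicate 1. That share did not pass (adjusted p = 0.0505, edgeR on family sums). Only 1 level was higher without stimulated replicate 2 or 3, and 6 were lower without unstimulated replicate 2. The median log2 difference over the segments tested was -0.30, 0.04 and -0.38 in the 3 comparisons, beside -0.05, 0.03 and -0.001 over all genes tested.

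The other parts of the loci were counted for comparison. Of 58 joining segments of the alpha chain tested, 44 fell with stimulation and 0 rose, beside 34.0% and 32.0% of all genes (edgeR; also 0 higher at an unadjusted p under 0.05). Their summed level was 218, 210 and 267 CPM in unstimulated, 113, 134 and 132 in stimulated and 211, 168 and 137 in inhibitor cells, with inhibitor replicate 1 highest of its group. Only 4 were higher with the inhibitor than in stimulated cells (Traj6, Traj14, Traj18 and Traj24) and 6 lower than in unstimulated cells. Of all genes, 21.7% and 26.1% were. Of 16 Trbj and Trbd segments, 9 fell with stimulation and 8 were lower with the inhibitor than without culture. The shares of all genes were 34.0% and 26.1%. Between inhibitor and stimulated cells 0 passed (edgeR, 1 lower at an unadjusted p under 0.05), where 21.7% of all genes were higher and 22.8% lower. The CD3 chains that carry the receptor fell in 3 of 4 cases with stimulation (Cd3e, Cd3g and Cd247), beside 34.0% of all genes. Cd3e went from 349 CPM ± 86.6 to 194 CPM ± 4.12 (log2 difference -0.84, adjusted p = 7.58e-04, edgeR) and stood at 389 CPM ± 28.9 with the inhibitor, higher than in stimulated cells (adjusted p = 5.74e-04). Cd3d did not pass, and Ptcra, the partner of the beta chain in the thymus, had too few counts to test.

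Genes of recombination were read for any sign of the machinery. Of 14 tested, 4 rose and 4 fell with stimulation, close to the 32.0% and 34.0% of all genes that did, so the counts show nothing particular to the list. Rag1, a subunit of the recombinase, was at 15.5 CPM ± 6.14 in unstimulated, 0.0411 CPM ± 0.00283 in stimulated and 0.229 CPM ± 0.177 in inhibitor cells, and Rag2 had 0.744 CPM ± 0.588 in unstimulated cells. Dntt, which adds bases at the join, was at 4.25 CPM ± 0.748, 2.58 CPM ± 1.12 and 0.197 CPM ± 0.101, lower with the inhibitor than in stimulated cells (log2 difference -3.69, adjusted p = 1.56e-04, edgeR). Of 12 transcription factors known to bind the receptor enhancers, 3 rose and 7 fell with stimulation, and 4 were higher and 4 lower with the inhibitor than in stimulated cells. Of all genes, 32.0% rose and 34.0% fell, and 21.7% and 22.8% were higher and lower with the inhibitor. Tcf7 went from 795 CPM ± 128 to 167 CPM ± 15.4 and stood at 503 CPM ± 29.9 with the inhibitor, and Gata3 from 80.1 CPM ± 13.3 to 279 CPM ± 15.7 and 113 CPM ± 13.3.

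Other cells were present in the enriched samples to different degrees. T cell markers summed to 1482 to 2390 CPM in unstimulated, 1618 to 1667 in stimulated and 1743 to 1859 in inhibitor cells, so the labelled cell type was present. For the counts that follow, 34.0% of all genes fell with stimulation. Markers of B cells (6 of 6 fell with stimulation) summed to 504 to 1317, 65.3 to 74.0 and 141 to 144 CPM. Myeloid markers (6 of 6 fell) summed to 886 to 1838, 38.6 to 41.6 and 35.6 to 64.9 CPM. NK markers (4 of 4 fell) summed to 185 to 220, 23.5 to 27.5 and 32.1 to 41.0 CPM, and erythroid markers (4 of 4 fell) to 30.2 to 536, 0.985 to 1.82 and 0.370 to 1.52 CPM. The part of these cells in the levels and shares of the variable segments was not tested.

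Position along the locus was the last property that the member rule had not used. The alpha locus joins in successive rounds that move outward from the segments nearest the joining cluster, as background. The 43 Trav segments farthest from the constant gene, at chr14:52427928-53042891, took 28.6%, 31.5% and 28.9% of Trav counts in unstimulated, 33.2%, 34.0% and 33.6% in stimulated and 32.8%, 32.1% and 32.5% in inhibitor cells. The 43 nearest it, at chr14:53454296-53977678, took 56.0% ± 1.81, 53.3% ± 1.05 and 53.8% ± 0.818, and the 42 between them 14.3% ± 0.566, 13.1% ± 1.48 and 13.7% ± 0.636. Unstimulated libraries lay below both cultured groups in the share of the distal segments. The middle and distal segments include most d and n copies, of which 12 of 39 and 11 of 34 passed the filter, against 43 of 55 segments with plain names.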

How the data were processed

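Total RNA was sequenced from 9 libraries of splenic CD3+ T cells in 3 groups of 3, with a kit that depletes ribosomal RNA and keeps strand, per the labels' protocols. The values are whole-number read counts per gene deposited by the authors, made with STAR 2.7.1a and featureCounts on mm10, per the submitters' processing notes. Not given in the sources used here: the annotation release, the strand setting, the treatment of reads that fit several genes and the counting of mates. 0 columns of the table were left unused. Castaneus reads were compared with a C57BL/6 reference. How well castaneus alleles of close segments are told apart in this way was not tested.

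Symbols, positions and sequences came from GENCODE M21 (mm10). Levels were fitted with edgeR 4.0.16 in R 4.3.3 (filterByExpr, TMM factors 0.926 to 1.122, group as the only term, glmQLFit and glmQLFTest, 18374 genes, 6 residual degrees of freedom, Benjamini-Hochberg over all genes, threshold 0.05, two-sided). Shares were fitted the same way with the Trav or Trbv total as library size and no TMM factor. Approximate SEs are the log2 difference over the square root of F. "Rose", "fell", "higher" and "lower" of a tested gene mean an adjusted p under 0.05. Evenness and sums carry no test. The tests recovered planted changes when tested on simulated data. Changes were planted only in better-counted genes, with the same spread for all genes, so segments with low counts are not covered. DESeq2 1.42.0 and limma 3.58.1, other scalings, filters, offsets and left-out libraries were alternatives.

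Named segments were the 10 with the largest mean share per locus, up to 5 called rises and 5 falls in share per comparison and locus without overlap and with a mean share of at least 0.5%, the largest families, Trav11 and Trav1. The members, lists and rule were chosen with earlier results of these data known. Replicate numbers were not taken as pairs, because the labels name no shared animal and not all same-numbered libraries deviated together.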

Additional observations from a re-analysis of the deposited data

How the results depend on the processing

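With other settings, the count of lower levels in inhibitor against stimulated cells (3) became 5 without a filter, with at least 10 counts in 6 libraries, or with DESeq2, and 6 with only the 6 libraries compared. With the TMM-scaled library size in place of the locus total, share calls for stimulated against unstimulated cells went from 1 higher and 3 lower to 0 and 18, and for inhibitor against unstimulated from 4 to 15 lower. That setting is the level test by construction. With families summed, 1 share was higher in inhibitor against stimulated cells, in place of 2. With only the 6 libraries compared, 6 were lower, in place of 3. The cause was not tested.

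The effective number of Trav segments (55.5, 54.8 and 54.2) became 51.5, 51.6 and 51.0 for functional segments, 15.7, 15.5 and 15.4 for families and 51.3, 50.1 and 48.8 without segments under 10 counts in a library. That of Trbv (17.2, 16.3 and 16.8) became 16.1, 15.2 and 15.8 for functional segments and 12.3, 12.9 and 12.6 for families, where stimulated cells were highest. Fewer units are counted in each of these by construction. Summed Trav was 73.5 CPM in stimulated cells with library totals only and 72.3 CPM in inhibitor cells for functional segments.

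Leaving out each library in turn, lower levels ranged from 11 to 23 in stimulated against unstimulated, 2 to 6 in inhibitor against stimulated and 7 to 21 in inhibitor against unstimulated cells, and higher ones from 1 to 3 in inhibitor against stimulated and 0 to 0 in the others. Lower shares ranged from 1 to 3, 1 to 6 and 2 to 4, and higher ones from 1 to 1, 0 to 3 and 0 to 0. Lower shares were 1 without unstimulated replicate 1 in the first, 6 without unstimulated replicate 2 and 1 without inhibitor replicate 1 or 3 in the second, and 2 without unstimulated replicate 1 or inhibitor replicate 1 in the third. Higher shares were 0 without stimulated replicate 3 in the second. Effective numbers ranged from 54.9 to 56.4, 54.2 to 55.4 and 53.6 to 54.9 for Trav and 17.0 to 17.5, 16.0 to 16.7 and 16.6 to 17.0 for Trbv. Summed levels ranged from 87.4 to 106.6, 76.8 to 80.4 and 73.7 to 75.6 CPM for Trav and 174.8 to 220.9, 123.4 to 139.3 and 131.4 to 136.6 CPM for Trbv.

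With the replicate number as a block, lower levels numbered 17, 3 and 14 and higher ones 0, 2 and 0, and lower shares 2, 3 and 4 and higher ones 1, 2 and 0. Correlations of same-numbered libraries ran from -0.194 to 0.005 between unstimulated and cultured libraries. Between stimulated and inhibitor libraries they were 0.144, 0.107 and 0.078, against -0.105 to 0.026 for different numbers, so each library correlated best with its own number there, a hint from the data and not the design. The labels name no shared animal. For the named segments, 877 values under alternatives kept direction and side of the threshold, 28 lost a call, 19 gained one and 0 turned sign while called. Trav1, Trav12-2 and Trbv29 gained a call in inhibitor against stimulated cells with only the 6 libraries compared and without unstimulated replicate 2. In stimulated against unstimulated cells, Trav14-2, Trav14-3 and Trbv21 each gained one with a library left out. The other gains came with the TMM-scaled library size. Shares near the 3-count limit are imprecise at this depth, that of Trav15-2-dv6-2 with the inhibitor among them, and those of copies without private words cannot be read.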

Other observations

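Of counts from 1 to 10, 53.4% were even among variable segments (249 values) and 74.5% among all genes (54874 values). The share of even counts ran from 70.6% to 78.5% over libraries for all genes and from 35.7% to 80.0% for variable segments. Pseudogenes held 3.55% ± 0.530 (SD, n = 3) of Trav counts in unstimulated, 2.88% ± 0.328 in stimulated and 3.12% ± 0.697 in inhibitor cells, and 3.50% ± 0.609, 3.97% ± 0.703 and 3.18% ± 0.459 of Trbv counts. Trbv20 took 8.95% of Trbv counts in inhibitor replicate 1 and 4.79% and 4.19% in replicates 2 and 3 of that group. Copies named d held 16.2% ± 1.85, 15.3% ± 0.337 and 15.6% ± 0.886 of Trav counts in the 3 groups and copies named n 8.65% ± 0.509, 8.58% ± 0.816 and 9.47% ± 0.237.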
